A study of Mus musculus with 9 samples.

Results

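Round spermatids (RS) are the haploid germ cells that follow the meiotic divisions, and the transcriptome described here is that of RS kept for 24 h with vehicle alone, without any inhibitor or metabolite. It rests on the 3 vehicle libraries of the 9 libraries in the series, chosen by their treatment label. The study sorted germ cells of mice by tdTomato fluorescence and cell size and sequenced polyA-selected RNA after culture with vehicle, with oxamate, which blocks lactate dehydrogenase, or with oxamate plus a cell-permeable form of L-2-hydroxyglutarate. Only the vehicle cells are treated below, and no treatment is compared. The vehicle was 0.15% DMSO, which the cells of the treated groups received as well, in MEM Eagle medium with lactate, pyruvate, glutamine and dialyzed serum. The labels give the genotype as WT, while the methods describe sorting from Stra8-Tom mice, in which Stra8-iCre, active from undifferentiated spermatogonia on, removes the stop before a CAG-driven tdTomato. The mice were on a C57Bl/6 background, and the methods name prepubertal and adult animals without saying which gave the cells of this culture. The number of animals behind each library is not given in the labels. The paper describes the RS incubations as triplicates, without saying whether these came from separate animals or cell isolations. The spread between the libraries may therefore be technical.

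RS carry out spermiogenesis: they build the acrosome, assemble the flagellum, shape the nucleus with the manchette and later replace histones with transition proteins and protamines. Transcription stops when the nucleus condenses, so many spermatid mRNAs are made early, bound by storage proteins and translated days later. The X and Y chromosomes are silenced during meiosis and only in part expressed afterwards, and many genes that cells need at all times have a second copy that is used in male germ cells.

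The libraries held between 36623116 and 39888396 counted reads. Of 55414 genes listed, 17094 had at least 10 counts in each of the 3 libraries, the rule used here for a detected gene, and these took 99.9% of the counted reads. Levels are given as normalized counts, the reads of a gene divided by the size factor of the library. They follow both the abundance and the length of a transcript, so levels of different genes are compared per kb of exon sequence, and normalized counts of different genes set side by side are shares of reads and not transcript levels. Unless stated otherwise a value is the mean ± SD of n = 3 libraries. The counts of each pair of libraries differed by more than sampling noise, by a chi-square, divided by its degrees of freedom, of 12.4 between libraries 1 and 2, 11.8 between 1 and 3 and 6.73 between 2 and 3. No library was therefore a copy of another, which does not show that they came from separate animals or cell isolations.

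The labelled cell type was checked against markers, which were chosen with earlier results of these data known. All 12 round spermatid markers were detected and together took 0.366% ± 0.00217 of the reads, led by Akap4, which encodes the main anchoring protein of the fibrous sheath, at 37447 ± 763 normalized counts. The spermatogonial markers took 0.00160% ± 0.0000740, with 8 of 12 detected and Id4 highest at 254 ± 10.7. Stra8, the gene of meiotic entry, stood at 0.926 normalized counts. Of the Sertoli markers 2 of 11 were detected, of the Leydig markers 2 of 8, of the peritubular myoid markers 4 of 9, of the macrophage markers 4 of 9 and of the endothelial markers 5 of 6. Their highest members were Inha (129), Cyp11a1 (12.2), Tagln (49.7), Adgre1 (76.4) and Vwf (413), in normalized counts. The members of these lists with 0 counts in each library were Fshr, Insl3, Hsd3b1, Hsd3b6, Lyz2 and Cd74. Only 39.9% of the 75-base stretches of the Insl3 transcript occur in no other gene, a share given below as the percent unique. A count of 0 allows up to 3 counts, or 2.67 to 2.84 normalized counts. None of the 5 erythroid genes was detected, but 4 of them are under 80% unique, so little can be read from their counts. In such bulk RNA, fewer cells of a type and less RNA per cell cannot be told apart.

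The RNA of vehicle RS was spread over many genes, and no single transcript dominated it. The gene with the most reads, Atp8b3, took 0.491% ± 0.0255 of the counted reads, the 10 highest 3.77% ± 0.0638, the 100 highest 16.9% ± 0.148 and the 1000 highest 57.3% ± 0.25. By mean rank 738 genes were needed to reach 50 percent of the reads and 4074 to reach 90 percent. All of the 100 highest genes were protein-coding, 1 of them lay on the X chromosome and 0 on the Y chromosome.

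Atp8b3, a phospholipid flippase of the acrosomal region, stood at 178114, 160178 and 181310 normalized counts in libraries 1 to 3. Ldhc, the lactate dehydrogenase of germ cells, had 178968, 155403 and 161835. The ranges of these genes overlapped, and library 1 placed Ldhc first. Pabpc1, the general poly(A)-binding protein, followed with 150126, 158117 and 165471. Fhl4, a LIM-domain protein of the testis, had 144804, 150199 and 145616, and its range overlapped the lowest Pabpc1 value without reaching the other two. Odf2, a component of the outer dense fibres of the flagellum, had 133209, 131439 and 141611, and Dnah8, a dynein heavy chain of the sperm axoneme, 116955, 112355 and 132991. Each gene of these therefore overlapped the next one in the order, except that every Fhl4 value lay above every Odf2 value.

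The next genes were Tcp1 (115606 ± 4327), a chaperonin subunit, Phf7 (112794 ± 3092), a histone reader of male germ cells, Eef2 (105678 ± 8343), the elongation factor of translation, and Akap12 (98063 ± 11527), a protein kinase A anchor. The Y-box RNA-binding proteins Ybx2 (92914 ± 5323) and Ybx3 (86192 ± 784) stood at ranks 11 and 13, beside Qrich2 (88644 ± 8230), a flagellar protein, and Hspa2 (78748 ± 1668), the testis heat shock protein. Trip12, a ubiquitin ligase, had 74413 ± 4594. Mael (73492 ± 2726) and Tdrd6 (72677 ± 4807) belong to the germ granules that hold piRNA pathway proteins. The sperm surface genes Adam3 (71742 ± 3310) and Adam5 (70432 ± 3412) and the acrosomal Crisp2 (69641 ± 7065) and Ccdc136 (70164 ± 3310) lay close together. The remaining genes of the first 30 were Gstm5, Dnaaf1, Morf4l1, Tesk1, Sord, Bag6, Phkg2, Tcp11 and Prrc2a, between 60453 and 70519 normalized counts. Across the 30 genes the coefficient of variation (CV) between libraries ran from 0.909% for Ybx3 to 11.8% for Akap12, with a median of 5.04%. The 3 libraries shared 26 of their own 30 highest genes and 93 of their 100 highest.

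**Figure D1:**
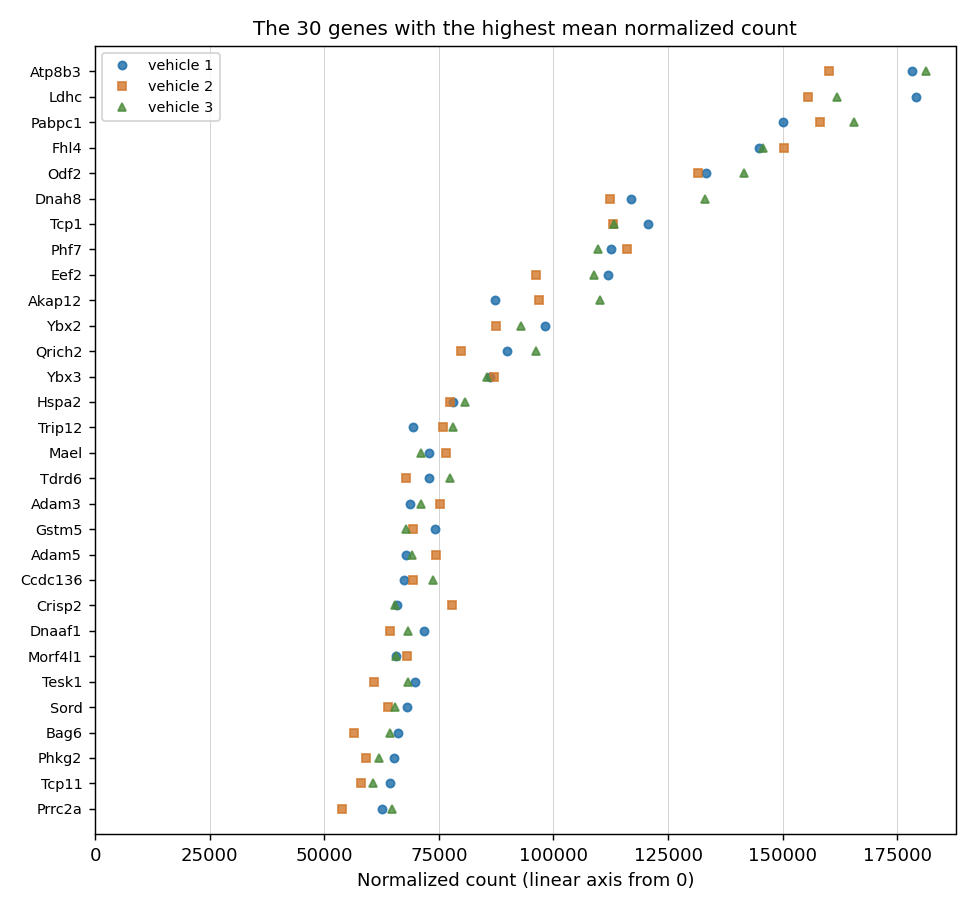
Normalized counts (x axis, linear, from 0) of the 30 genes with the highest mean, 1 row per gene, with 1 point for each of the 3 vehicle libraries. Atp8b3 and Ldhc overlap at the top between 155403 and 181310, and the levels then fall gradually to about 60453 for Prrc2a. Every value of the first 4 genes is at least 144804, and no later gene exceeds 141611.

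Dividing by the merged exon length changed the order toward short transcripts. Ldhc led with 104685 ± 7709 normalized counts per kb, followed by Gstm5, a glutathione transferase, with 55179 ± 2564, Ropn1l, a sperm flagellar protein, with 54049 ± 2194, Meig1, a gene needed for the manchette and flagellum, with 50078 ± 1909, and Ybx2 with 49291 ± 2824. Ldhc thus stood well above the next genes, which followed each other closely. Mael (42407 ± 1573), Fhl4 (41326 ± 819), Spata4 (38883 ± 3778), Pgam2 (36938 ± 2589), the phosphoglycerate mutase of muscle and sperm, and Atp8b3 (36750 ± 2417) completed the 10 highest. Of the 100 highest genes by normalized count 51 were also among the 100 highest per kb. The median exon length was 4061 bases for the first set and 1650.5 bases for the second, against 3444 bases for all detected genes.

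Grouped by role, the transcripts of the flagellum and of RNA storage took the largest shares of reads among 16 lists, an order that did not hold per kb of coding sequence, where ribosomal protein genes led with 2.42%, ahead of mRNA storage with 1.89%. The 466 genes of the lists together held 11.3% ± 0.0396 of the counted reads, and 23 of the 100 highest genes belonged to them. As a background, 5.85% of all detected genes are among the 1000 highest, their median rank is 8547.5 and their median level is 80.9 normalized counts per kb.

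The mRNA storage and translation list took 2.33% ± 0.0386 of the reads, and 26 of its 27 genes were detected. Its highest members were Pabpc1, Ybx2 and Ybx3, and 14 were among the 1000 highest genes. The germ granule genes were uneven per kb, with 42407 ± 1573 for Mael and 10291 ± 681 for Tdrd6, beside 278 ± 2.58 for Piwil1, the PIWI protein of pachytene piRNAs, and 99.9 ± 5.39 for Dazl, an RNA-binding protein of earlier germ cells. Cpeb1 was the undetected member, at 6.09.

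The axoneme and intraflagellar transport genes followed with 1.76% ± 0.0486 of the reads, and 30 of 31 were detected. Dnah8 led, ahead of Meig1 with 55186 ± 2104 and Ift140, a transport complex subunit, with 41715 ± 3247 normalized counts. Rsph4a, a radial spoke head gene, was the exception at 3.36 normalized counts or 0.921 per kb, beside 20403 ± 146 per kb for Rsph1, another radial spoke gene. The fibrous sheath and outer dense fibre list held 1.53% ± 0.00675 in only 19 genes, all of them detected and 15 among the 1000 highest. Their median rank was 345 and their median level 9745 normalized counts per kb, the highest of the lists. Odf2, Tcp11 (60917 ± 3179) and Akap3 (58689 ± 1046) led it.

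For the sperm head, 20 of 20 acrosome genes were detected with 0.740% ± 0.0204 of the reads, or 1.15% per kb of exon, led by Crisp2, Dkkl1 (35400 ± 1741) and Dpy19l2 (18700 ± 844), the last a protein that anchors the acrosome to the nucleus. The proacrosin gene Acr had 11621 ± 520. All 26 genes of the sperm surface and gamete fusion list were detected with 0.863% ± 0.0281, or 1.06% per kb, so that the order of both lists turned with length correction. Adam3, Adam5 and Clgn (34296 ± 2375), the chaperone that folds them, stood highest, and Izumo1, the sperm protein that binds the egg, had 4327 ± 160 normalized counts with 77.5% of its stretches of 75 bases unique. The manchette and head shaping list held 0.580% ± 0.0119, and 0.360% per kb of coding sequence, with 20 of 20 detected, led by Rimbp3 (54059 ± 3668), Klhl10 (22495 ± 823) and the kinesin Kif17 (19083 ± 1446).

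Channels and kinases of mature sperm were already present as RNA. Of 19 genes of the CatSper calcium channel and other sperm ion transport, 18 were detected with 0.461% ± 0.0219 of the reads, led by C2cd6 (35797 ± 5204), Adcy10 (20795 ± 1118), the soluble adenylyl cyclase, and Catsper2 (15793 ± 262). Hvcn1, a proton channel, was the undetected member at 2.13 normalized counts. The 6 testis-specific serine kinases took 0.120% ± 0.00408, or 0.192% per kb of exon, led by Tssk1 (15830 ± 729), Tssk2 (13560 ± 544) and Tssk4 (7969 ± 317). The transcription regulators of spermatids took 0.430% ± 0.00623 with 15 of 15 detected. Tbpl1, a relative of the TATA-binding protein, had 23621 ± 929, Gtf2a1l, the germ cell TFIIA subunit, 22044 ± 617, and Rfx2, a factor of ciliary genes, 21632 ± 1053. Crem, the activator of postmeiotic genes, had 13344 ± 644. The Y-linked Sly was listed at 129 ± 15.9, but 0% of the 75-base stretches of its transcript are unique to it, so that value cannot be separated from its copies.

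The genes of nuclear condensation took 0.145% ± 0.00787 of the reads, with 10 of 10 detected and a median rank of 1617.5. H1f9, a linker histone of spermatids, led with 15792, 13168 and 13567 normalized counts in libraries 1 to 3. The transition protein genes followed, Tnp2 with 8765, 8025 and 7672 and Tnp1 with 7334, 6922 and 6481. Prm2 had 6933, 6513 and 6253 and Prm1 5203, 4960 and 4583. In each of these genes library 1 was highest, as it was over short transcripts in general (0.06 log2 above the mean for the shortest bin of genes), and the part of that here was not tested. The 5 genes stood at ranks 545, 1059, 1297, 1378 and 1818, and none was among the 100 highest. Their transcripts are short, and per kb the picture differed: H1f9 had 16407 ± 1637, Tnp1 15818 ± 976, Tnp2 14718 ± 1007, Prm1 8608 ± 547 and Prm2 7345 ± 384, and the list took 0.653% ± 0.0266 of the total per kb. The coding sequences show what these RNAs carry. They are given 5′ to 3′ from the GENCODE transcripts of GRCm38, with arginine codons in capitals, because arginine is the residue by which protamines bind DNA. The Prm1 gene lies at chr16:10796326-10805839 on the minus strand and the Tnp1 gene at chr1:73015074-73015909 on the minus strand.
Prm1: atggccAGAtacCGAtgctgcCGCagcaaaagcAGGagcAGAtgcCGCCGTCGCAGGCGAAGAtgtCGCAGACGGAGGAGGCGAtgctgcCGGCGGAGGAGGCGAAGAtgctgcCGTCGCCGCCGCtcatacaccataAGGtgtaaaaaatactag
Tnp1: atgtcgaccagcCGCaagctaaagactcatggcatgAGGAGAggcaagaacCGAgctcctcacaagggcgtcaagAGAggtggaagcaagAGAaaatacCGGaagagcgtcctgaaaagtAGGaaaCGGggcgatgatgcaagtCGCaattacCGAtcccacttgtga
In Prm1 28 of 51 codons code for arginine and 3 for lysine. In Tnp1 the numbers are 11 and 10 of 55 codons, so the basic residues are divided about evenly.

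Transcripts of meiotic prophase were still found. The list held 0.273% ± 0.00430 of the reads and 0.315% per kb, with 25 of 28 genes detected but a median rank of 5431, far below the lists above. Its members were split per kb. Stag3, the meiotic cohesin subunit, had 5415 ± 288 per kb, Syce1, a protein of the synaptonemal complex, 11182 ± 396, and Ccna1, the meiotic cyclin A, 7285 ± 755, whereas Dmc1, Ccnb1ip1 and Rad21l were not detected, at 3.51, 2.45 and 0.357 per kb. Genes that are often raised by cell handling or stress took 0.0657% ± 0.00460, and 12 of 23 were detected. Of this share Dnajb1, a heat shock co-chaperone that spermatids are known to express, held most with 19406 ± 1572. Nr4a1 and Ddit3 followed with 1307 ± 102 and 1094 ± 43.2. Fos, Atf3 and Ier3 were each under 1 normalized count, and Myc and Trib3 had 0 counts in each library, which allows up to 3 counts.

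**Figure D2:**
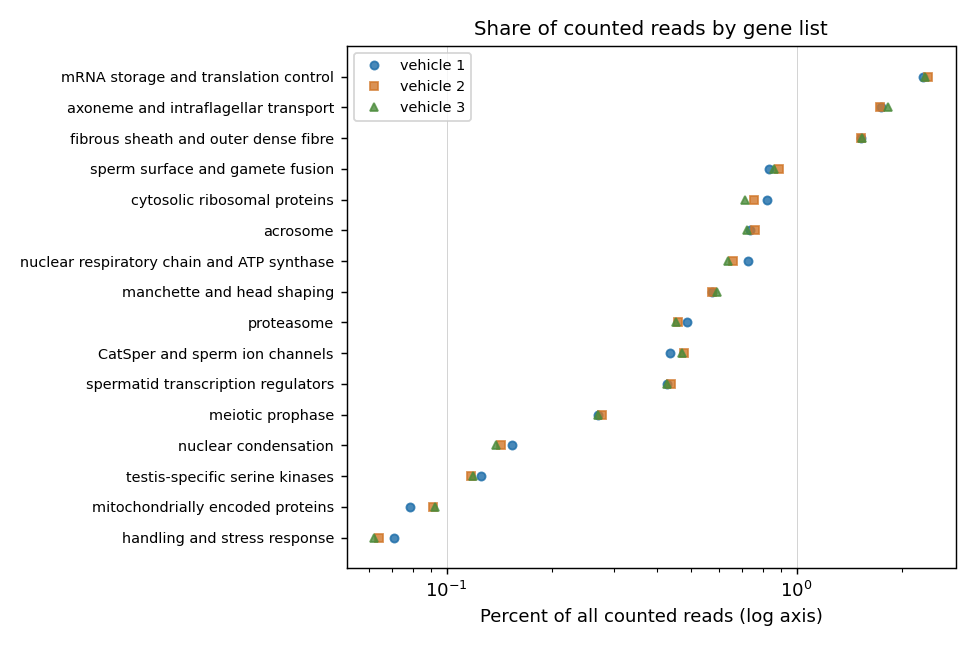
Share of counted reads (x axis, percent, log scale) held by each of the 16 lists, with 1 point for each vehicle library. mRNA storage (2.33%), the axoneme (1.76%) and the fibrous sheath and outer dense fibres (1.53%) stand highest, and nuclear condensation (0.145%) lies below the meiotic list (0.273%), an order that turns per kb of exon (0.653% and 0.315%).

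The shares of the housekeeping lists depended on the length correction. Cytosolic ribosomal protein genes held 0.762% ± 0.0549, with 76 of 83 detected and a median rank of 2596.5, and 49 of the 83 are under 80% unique. The list was led by Rplp0 (16331 ± 1333), Rpl39l and Rps24 (10051 ± 223). Nuclear respiratory chain and ATP synthase genes held 0.673% ± 0.0457, led by Atp5b (24279 ± 1477), Uqcrc1 (12707 ± 1514) and Ndufv2 (11126 ± 529). The proteasome list held 0.466% ± 0.0189, led by Psmc3 (39277 ± 2160), Psmd2 (19740 ± 1247) and Psmc2 (18278 ± 67.7). Per kb of exon the ribosomal list held 1.58% and the respiratory list 1.29%, and per kb of coding sequence 2.42% and 1.85%, where the ribosomal share was the largest of the 16 lists. In each of the 3 housekeeping lists library 1 was highest in read share, for the ribosomal list with 0.821% against 0.753% and 0.713%. Library 1 was also relatively higher in short transcripts, as described with the spread of the libraries, and the part of that in these shares was not tested.

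The mitochondrially encoded genes held 0.0876% ± 0.00782, or 0.230% per kb of exon, of which mt-Co1, a subunit of cytochrome oxidase, made up most with 18556 ± 1389 normalized counts, ahead of mt-Cytb (3455 ± 420) and mt-Nd4 (2912 ± 358). Of the 75-base stretches of mt-Co1 60.2% are unique and of those of mt-Nd4 38.5%. The genes mt-Co2, mt-Co3, mt-Atp6 and mt-Nd3 were listed at 2.47, 9.74, 3.35 and 2.15 and mt-Nd4l at 0. Between 0.141% and 2.19% of the 75-base stretches of these 5 transcripts occur in no other annotated transcript, against 100% for mt-Cytb and mt-Nd1. The handling of reads that fit several genes is not given in the sources used here, and no abundance can be read from these values.

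Male germ cells use separate copies of many common genes, and vehicle RS used the testis copy in most families examined. These families were chosen with earlier results of these data known, so the counts below describe the set chosen and not paralogs in general. In 43 paralog families, with 60 testis and 72 somatic members assigned from general knowledge, the testis members held more than 50 percent of the normalized counts per kb in all 3 libraries in 36 families. They held more than 90 percent in 28 families and more than 99 percent in 12. The median share was 93.3%, and the largest SD between libraries was 2.62 percentage points. All 60 testis members and 58 of the 72 somatic members were detected, with medians of 5413 and 71.6 normalized counts per kb.

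**Figure D3:**
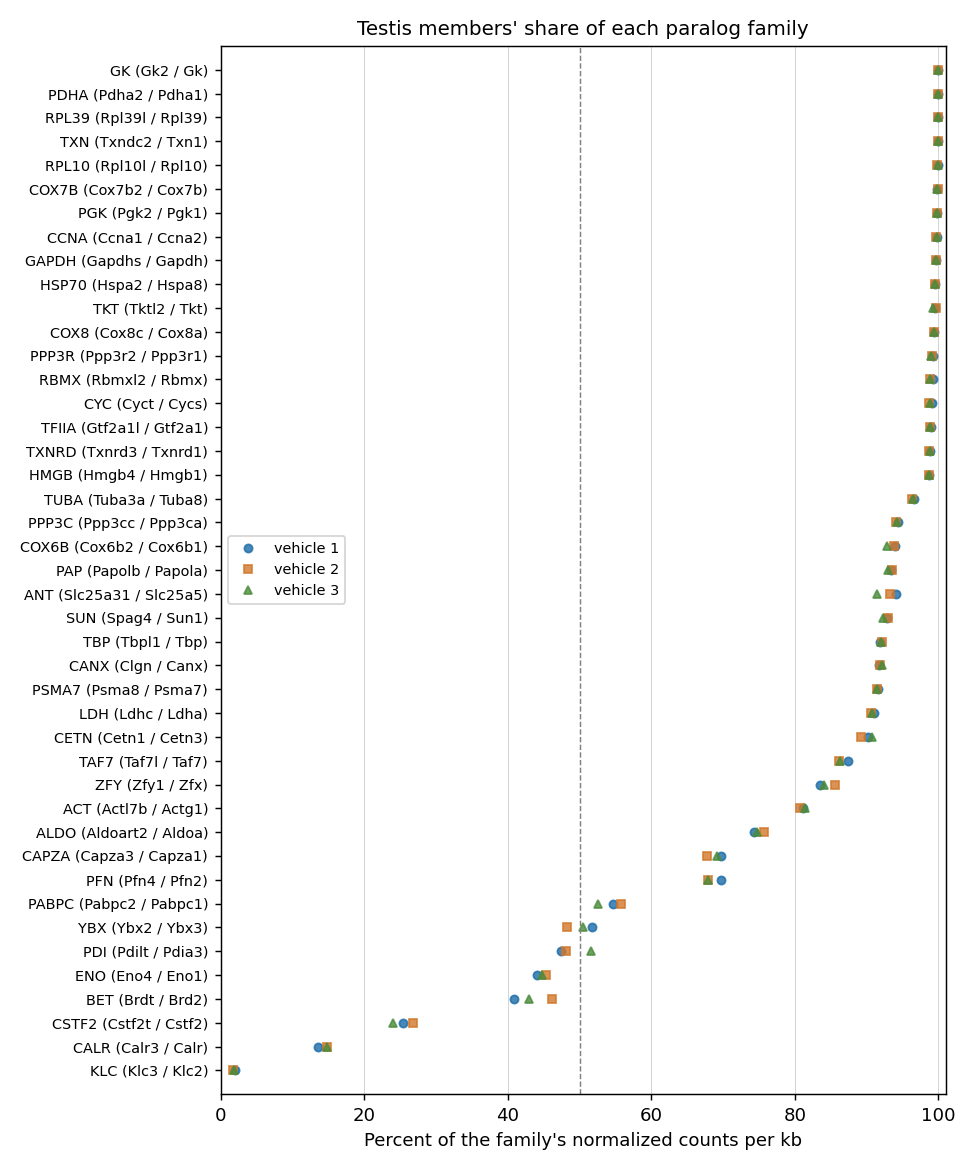
Share of each family's normalized counts per kb held by its testis members (x axis, percent), 1 row per family with its leading testis and somatic gene, and 1 point for each vehicle library. The dashed line marks 50 percent. 36 families lie to its right in each library, and the bottom rows are KLC, CALR, CSTF2, BET and ENO.

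In glycolysis, Pgk2, the autosomal phosphoglycerate kinase, had 29919, 29674 and 28306 normalized counts in libraries 1 to 3. The X-linked Pgk1 had 77.3, 65.4 and 65.9, so the ranges lay far apart in each library. Per kb Pgk2 was 581-fold above Pgk1, with the limit that only 32.5% of the 75-base stretches of the Pgk1 transcript are unique to it. Gapdhs, the glyceraldehyde phosphate dehydrogenase bound to the fibrous sheath, had 15931 ± 663 per kb against 48.3 ± 0.694 for Gapdh, a share of 99.7% ± 0.0136 that was 99.2% without length correction and 99.1% with coding lengths. Gapdh is 77.2% unique. The aldolase family was less one-sided: Aldoart2 had 8286 ± 261 and Aldoart1 2121 ± 87.7 per kb, and Aldoa 3491 ± 192, for a testis share of 74.9% ± 0.740. In the lactate dehydrogenase family Ldhc and Ldhal6b (29298 ± 1694 per kb) held 90.8% ± 0.232, while Ldha kept 13610 ± 567 per kb and rank 66. Ldhb had 6, 3 and 6 counts. Enolase stood apart, with a share of 44.7% ± 0.602 for Eno4 beside Eno1 at 1691 ± 148 per kb. Only 34.6% of the Eno1 stretches are unique, and with the members that are at least 80% unique the Eno4 share was 79.5%. It was 25.8% with the longest transcript, 31.0% without length correction and 24.0% with coding lengths, so the share of this family is uncertain.

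Beyond glycolysis, Pdha2, the pyruvate dehydrogenase subunit of germ cells, had 7214, 6485 and 6817 counts, or 2664 ± 56.7 normalized counts per kb, whereas the X-linked Pdha1 had 3, 0 and 4 counts and was not detected. The glycerol kinases Gk2 (26504 ± 795 per kb) and Gykl1 (19238 ± 373) together held 99.99% of their family per kb of exon, and 99.94% without length correction, beside the X-linked Gk (6.16 ± 1.06). The transketolases Tktl2 and Tktl1 held 99.5% ± 0.183 beside Tkt.

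The respiratory chain showed the same preference in its small subunits. Cox8c had 22396 ± 2353 per kb and Cox8a 138 ± 15.4. Cox7b2 had 5237 ± 490, while the X-linked Cox7b was not detected, with 13, 8 and 11 counts, and Cox6b2 held 93.5% ± 0.615 of its family. Cyct, the testis cytochrome c, held 98.9% ± 0.237 with 2825 ± 69.5 per kb beside 31.8 ± 6.13 for Cycs. The adenine nucleotide carrier Slc25a31 had 404 ± 26.1 per kb and held 92.9% ± 1.34, the lowest level of the testis copies in this group. The coding sequences of Cyct and Cycs differ at 76 of 318 bases. All of the 75-base stretches of the Cyct transcript and 73.9% of those of Cycs are unique, so reads of the pair can mostly be told apart.

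A ribosomal protein pair was among the most one-sided. Rpl39l had 14489, 11557 and 10748 counts in libraries 1 to 3 and Rpl39 12, 9 and 2, a share of 99.97% ± 0.0207 per kb for Rpl39l. Rpl10l had 9640, 9056 and 8499 normalized counts and Rpl10 22.2, 33.2 and 21.1, although only 47.0% of the Rpl10 stretches are unique. Both somatic parents are X-linked and both testis copies autosomal. The Rpl39l gene lies at chr16:10170226-10174911 on the plus strand and the Rpl39 gene at chrX:37082520-37085402 on the minus strand of GRCm38. Their coding sequences, of 156 bases each, are shown with the 23 differing bases in capitals.
Rpl39l: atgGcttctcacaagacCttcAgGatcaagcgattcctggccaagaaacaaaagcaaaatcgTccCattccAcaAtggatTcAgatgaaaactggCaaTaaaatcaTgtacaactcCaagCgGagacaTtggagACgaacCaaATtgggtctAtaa
Rpl39: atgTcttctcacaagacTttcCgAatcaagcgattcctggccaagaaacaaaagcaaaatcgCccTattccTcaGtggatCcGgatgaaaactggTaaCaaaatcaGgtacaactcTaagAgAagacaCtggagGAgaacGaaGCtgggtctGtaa
Of the 75-base stretches 100% were unique for the Rpl39l transcript and 92.4% for that of Rpl39, so shared sequence covers little of either.

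Among chaperones and cytoskeletal genes the choice varied. Hspa2 (29784 ± 631 per kb) stood far above Hspa8 (160 ± 6.0), with a testis share of 99.5% ± 0.0259 for the family, and only 59.1% of the Hspa8 stretches are unique. Clgn held 91.9% ± 0.25 beside Canx. In contrast Calr, the common calreticulin, had 5440 ± 244 per kb and left Calr3 a share of 14.4% ± 0.761, and Pdilt held 49.0% ± 2.22 beside Pdia3, with library 3 above 50 percent and the others below. The Pdilt share was 41.2% without length correction and 37.6% with coding lengths. The α-tubulins Tuba3a (30706 ± 2578 per kb) and Tuba3b (25296 ± 2680), 80.1% and 81.1% unique in sequence, held 96.4% ± 0.151. The actin-related testis genes held 81.1% ± 0.345, most of it Actl7b (31716 ± 2812 per kb), beside Actg1 (7036 ± 707, 45.5% unique) and Actb (5274 ± 385). Of the kinesin light chains Klc2 had 974 ± 70.3 and Klc4 578 ± 43.4 per kb, and Klc3, the testis member, held 1.83% ± 0.124. Capza3 held 68.9% ± 1.01 per kb, but 46.3% without correction for length and 97.03% without Capza1, which is 33.0% unique.

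Of the families of transcription and RNA handling, Tbpl1 held 91.9% ± 0.130, Gtf2a1l 98.9% ± 0.0438, Papolb, the cytoplasmic poly(A) polymerase of spermatids, 93.3% ± 0.304, Hmgb4 98.6% ± 0.0244 and Rbmxl2 between 98.9% and 99.3% in the 3 libraries. The calcineurin subunits Ppp3cc and Ppp3r2 held 94.2% ± 0.162 and 99.1% ± 0.153, and the cyclin Ccna1 99.7% ± 0.0360. Others used both kinds of gene. Brdt held 43.3% ± 2.62 of the BET bromodomain family beside Brd2 (2399 ± 79.4 per kb). Pabpc2 with Pabpc6 held 54.3% ± 1.62 beside Pabpc1, a share that fell to 33.2% without correction for length. Ybx2 had 49291 ± 2824 per kb beside 28030 ± 255 for Ybx3 and 20981 ± 569 for Ybx1, both of which were counted as somatic, a share of 50.1% ± 1.77 that lay on either side of 50 percent depending on the library and was 40.0% without correction for length. The X-linked Cstf2, a cleavage factor subunit, exceeded its autosomal copy Cstf2t, which held 25.4% ± 1.38 per kb of exon, 13.6% without length correction and 12.6% with coding lengths.

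Low levels of the somatic copy were frequent where it was X-linked. In 8 families all somatic members were X-linked and all testis members autosomal: PGK, PDHA, GK, COX7B, CSTF2, RBMX, RPL10 and RPL39. In 7 of the 8 the testis share exceeded 95 percent in every library, and CSTF2 was the exception. Of the 35 other families 12 exceeded it as well. The 12 X-linked somatic members of all families had a median of 15.5 normalized counts per kb and the 60 autosomal ones 136. The housekeeping lists gave similar values, but their Rpl10, Rpl39 and Cox7b are also members of these families. The autosomal genes of these lists include the testis copies Rpl39l and Cox8c. The 4 X-linked ribosomal protein genes, Rpl10, Rpl36a, Rpl39 and Rps4x, lay between 0.556 and 12.4 normalized counts per kb, against a median of 1487 for the 79 autosomal ones, many of which are not unique either. Rps4x and Rpl36a are only 47.1% and 52.6% unique. The 3 X-linked respiratory chain genes, Cox7b, Ndufa1 and Ndufb11, lay between 8.02 and 185 per kb, against a median of 1151. The proteasome gene Psmd10 was different, with 519 per kb against an autosomal median of 594.

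Over the whole X chromosome 397 of 929 protein-coding genes were detected (42.7%), against 12449 of 20759 autosomal ones (60.0%). Uniqueness was not computed over all genes of the X, the Y or the autosomes. The part of reads that fit several genes in these values was not tested. The detected X-linked genes had a median of 70.2 normalized counts per kb and the autosomal ones 98.97. Taken in each library and then averaged, the X-linked median was 71.7% ± 3.96 of the autosomal one. This ratio depended on which genes entered: with all protein-coding genes of at least 1 count it was 23.2%, and for the means of detected genes 36.4%. One autosome, chromosome 14, had a lower median than the X chromosome, at 61.2, and chromosome 11 had the highest at 149. The X chromosome held 2 of the 1000 highest genes, Akap4 and Tsga8. The X-linked genes with the most reads were Akap4 (37447 ± 763), Tsga8 (13019 ± 1050), a gene expressed in spermatids, Gm1141 (7206 ± 433), Cul4b (5544 ± 418), a ubiquitin ligase scaffold, and Alg13 (4703 ± 93.4). On the Y chromosome 53 of 175 protein-coding genes were detected, with a median of 47.2 per kb. Eif2s3y, a translation initiation factor, led with 2301 ± 157 normalized counts, followed by the pseudogene Gm28356 and by Uba1y, Usp9y and Gm21394 with 754 ± 77.7, 692 ± 51.7, 436 ± 49.6 and 376 ± 18.8. Of these Uba1y and Gm21394 are 58.0% and 20.5% unique.

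**Figure D4:**
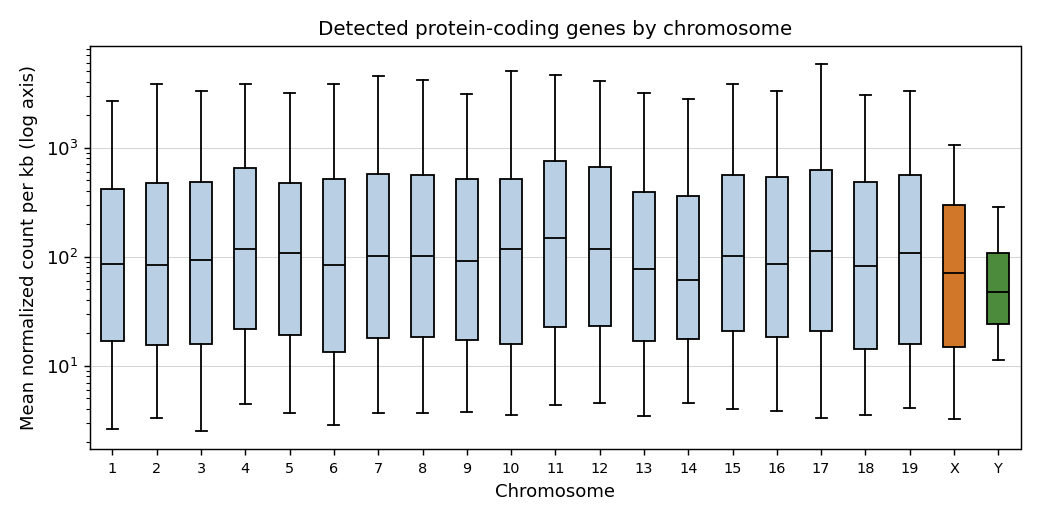
Mean normalized counts per kb of detected protein-coding genes (y axis, log scale) by chromosome (x axis), with boxes from the lower to the upper quartile, a line at the median and whiskers at the 5th and 95th percentiles. The X median (70.2) lies below those of 18 of 19 autosomes, and the upper whisker of X is lower than that of each autosome.

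Protein-coding genes took 96.5% ± 0.0702 of the reads and all other annotated types 3.45% ± 0.0706. Among the latter, long intergenic RNAs took 1.21% ± 0.0285, antisense genes 0.959% ± 0.0227 and pseudogenes 0.735% ± 0.0223. The highest of them were the pseudogene 1700001J11Rik (35015 ± 396 normalized counts), the antisense gene Gm11837 (25217 ± 1323), the pseudogene Gm7444 (21606 ± 677), the intergenic Rbakdn (17654 ± 1736) and the pseudogene BC106175 (16837 ± 1559). The 75-base stretches of these transcripts were between 87.2% and 100% unique. The kit marks the strand, but the strand setting of the counting is not given in the sources used here, so reads of Gm11837 and of a gene on the other strand may not be separated.

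Sequences around the start of the genes with the most reads were searched for TGACGTCA, the full cyclic AMP response element, which reads the same on both strands. RefSeq promoter windows of GRCm38.p6, from 250 bases before to 50 after the start, were found for 24 of the 30 highest genes by symbol. The motif was present in 2 of them, Tesk1 and Eef2, or 8.33%, beside 2.03% of all 27025 genes in the promoter table and 3.33% of the detected genes found there. In the Tesk1 window it began 93 bases before the start, and in the Eef2 window just after the start. Of the 100 highest genes 3 of 80 found had it, and of the 1000 highest 25 of 812, or 3.08%.

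The libraries differed little from each other. Over the 10742 detected genes with a mean of at least 100 normalized counts the median CV was 6.57%, and 124 genes (1.15%) exceeded 20 percent. Without library 1 the median was 4.26%, without library 2 it was 5.75% and without library 3 6.13%, so library 1 lay farthest from the others. CVs from fewer libraries tend to be lower, so these values compare with each other and not with 6.57%. edgeR gave a common dispersion of 0.00475 over the 17094 detected genes, which corresponds to a CV beyond counting error of 6.89%. This spread may be technical. The spread was near the counting error for rare transcripts and above it for abundant ones. A median CV from 3 libraries tends to lie below the true CV, so it compares only roughly with the counting CV. The median CV was 15.1% beside a counting CV of 16.6% for means from 10 to under 100, 7.45% beside 5.49% from 100 to under 1000, 5.80% beside 1.86% from 1000 to under 10000, and 5.37% beside 0.745% above. Between libraries 2 and 3 no gene of mean 100 or more differed by more than 2-fold, between libraries 1 and 2 there was 1 and between libraries 1 and 3 there were 2.

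The deviations of the libraries followed transcript length in part. Within the middle length bin the median CV was 6.25%, beside 6.57% over all lengths. Among 4897 genes with a mean of at least 1000 and a known length, split into 5 bins of about equal number by length, the shortest bin deviated by a median of 0.06 log2 in library 1 and by -0.03 in library 3, and the longest bin by -0.04 and 0.06. Library 2 deviated by between -0.03 and -0.01 in all bins. Spearman's rho across these genes, which share libraries and are not independent, was 0.44 between length and the log2 ratio of library 3 to library 1. The genes with the largest CV at a mean of at least 1000 were Malat1, a nuclear long non-coding RNA, at 25.9%, with 1389, 1818 and 2345 normalized counts, and Epc2, Gm11639, Tmem184c and 4930563M21Rik, at 23.8%, 22.4%, 22.05% and 21.9%. In each of these 5 genes library 1 was lowest. The smallest CVs were those of Fam183b, with 3083, 3081 and 3084 normalized counts, Ppp2r1b, Cnst, Thegl and Wipi1, all at or under 0.131%, which is below their counting error.

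**Figure D5:**
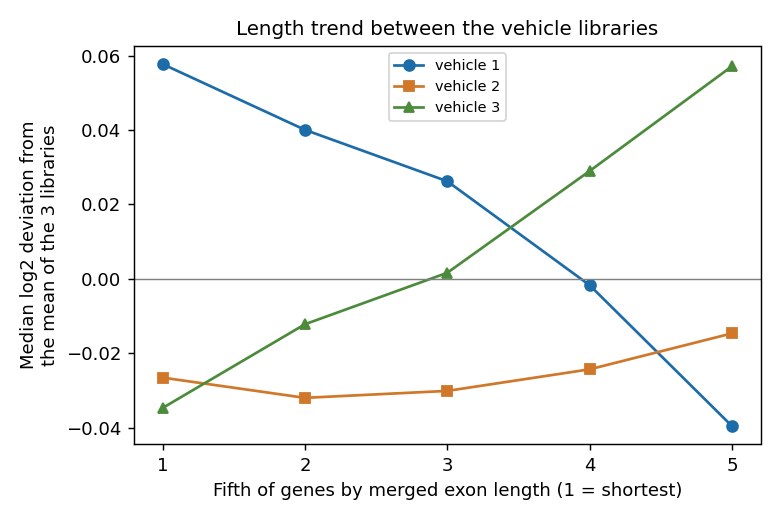
Median log2 deviation from the mean of the 3 vehicle libraries (y axis) for 5 bins of genes by merged exon length (x axis, 1 = shortest), with 1 line per library, over 4897 genes. Library 1 falls from 0.06 to -0.04, library 3 rises from -0.03 to 0.06, and library 2 stays slightly under 0.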

How the data were processed

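RNA of sorted RS was sequenced in 9 libraries, of which the 3 vehicle libraries, labelled so in GEO, were used. The authors trimmed the reads with cutadapt 2.10, aligned them to GRCm39 with TopHat2 2.1.1, counted them per gene with HTSeq 2.01 and deposited these raw counts. Further columns of the same deposited table hold the size-factor signal, the count divided by a DESeq2 1.36.0 size factor, for genes with at least 10 counts summed over 9 libraries. For other genes the count was divided by the same factor. The labels' processing notes list a nematode build beside GRCm39, and the labels and the methods name different instruments. Every column of values was matched to a sample.

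Exon lengths (merged over transcripts), gene types and chromosomes were joined by gene ID from GENCODE M21 on GRCm38 (99.7% of detected genes), and no position was moved between builds. Uniqueness is the share of 75-base stretches of a gene's longest transcript that occur in no other gene's transcripts on either strand. Coding sequences came from the same transcripts. The dispersion was estimated with edgeR 4.0.16 in R 4.3.3 in a fit with an intercept only, which was tested on simulated data. No group was compared, and no p-value was computed. The lists, families and markers were chosen with earlier results of these data known. Genes named are the 30 highest by mean normalized count, the 10 highest per kb, the 3 highest of each list, markers at 0, family members, the 5 highest on X, on Y and of other gene types, and the 5 largest and smallest CVs at a mean of at least 1000. Other list members named were chosen after their values were seen. The depth of 36623116 to 39888396 counts makes counting error small beside the spread between libraries for means over 1000, and intervals of counts of 0 cover counting error only. Alternatives were other rankings, length measures, filters and scalings, and each library left out in turn. The uniqueness filter, coding lengths and the middle bin by length were added after the data were seen.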

Additional observations from a re-analysis of the deposited data

How the results depend on the processing

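Length correction moved the shares of single lists most. From reads to per kb of exon to per kb of coding sequence, nuclear condensation went from 0.145% to 0.653% to 0.592%, ribosomal proteins from 0.762% to 1.58% to 2.42%, the nuclear respiratory chain from 0.673% to 1.29% to 1.85%, and the mitochondrially encoded genes from 0.0876% to 0.230% to 0.0978%. The acrosome list went from 0.740% to 1.15% per kb of exon, above the sperm surface list (1.06%), the serine kinases from 0.120% to 0.192%, and the manchette list from 0.580% to 0.360% per kb of coding sequence. With 100 counts in each library as the rule for detection 10693 genes passed, with 1 count 24311, and leaving out 1 library gave 17310 to 17423. Counted per kb, the shares of the 10, 100 and 1000 highest genes were 4.37%, 20.2% and 61.6%. The gene lists together took 14.3% per kb of exon, 14.04% per kb of coding sequence and 11.2% without the mitochondrially encoded genes. The X-linked median was 23.2% of the autosomal one with all protein-coding genes of at least 1 count, and the ratio of the means was 36.4%. With no filter beyond detection the median CV was 8.40%. Leaving out 1 library gave 4.26% to 6.13%, lowest without library 1, but CVs from fewer libraries tend to be lower. In the middle length bin the median CV was 6.25%. Scaling by total counts or by TMM left it within 0.107 percentage points.

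The number of families led by testis genes was 35 with the longest transcript, 34 without length correction or with coding lengths, 30 of 36 with members at least 80% unique, and 36 to 37 with 1 library left out. A total of 4 families changed sides of 50 percent. The enolase share was 79.5% among unique members, 25.8% with the longest transcript, 31.0% without length correction and 24.0% with coding lengths. The CAPZA share was 46.3% without length correction, 45.2% with coding lengths and 97.03% among unique members. The PABPC share was 34.6% with the longest transcript, 33.2% without correction and 33.4% with coding lengths. The YBX share was 41.2%, 40.0% and 39.1% in the same order, and 49.3% to 51.1% with 1 library left out. The CSTF2 share went to 13.6% without correction and 12.6% with coding lengths. The mean shares of the other 39 families kept their side in the alternatives run. The uniqueness alternative could not be run for the families PGK, GAPDH, CYC, HSP70, RPL10, HMGB and ZFY, and single libraries of PDI lay on both sides. No paired analysis was possible because only 1 group was used. Depth limits statements on genes under about 100 normalized counts, where the median counting CV (16.6%) was near the median CV between libraries (15.1%).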
